A study of Mus musculus with 16 samples.

Results

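Imprinted growth genes were examined in preSC, cultured mouse cells that model a precancerous stage of small cell lung cancer. The set comprised 10 genes chosen by symbol, Igf2, H19, Dlk1, Meg3, Peg3, Peg10, Mest, Cdkn1c, Grb10 and Plagl1, of the 17655 gene symbols listed. Values were found for 9 of the 10, and Dlk1 was not analysed here. Of those 9, 6 reached a mean value of at least 10 over the 16 samples, the minimum for testing: Igf2, Peg3, Peg10, Mest, Cdkn1c and Grb10.

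The cells were Chga-positive neuroendocrine cells of the lung, null for Rb1 and Trp53 and heterozygous for a null Rbl2 allele, a genotype that both groups share. One group carried an empty lentiviral control vector (empty) and the other a lentivirus with Wnt5a (Wnt5a), which encodes a secreted Wnt ligand. Both were treated with doxycycline at 1 µg/mL for 48 hours before RNA was taken, and mRNA was selected by oligo-dT from 500 ng of total RNA. Whether the infected cells were clones or pools is not given in the sources used here. Each group had 8 deposited samples.

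The samples held 7526676 to 8859862 recovered reads each. Within a group, samples 1 to 4 differed from one another by little more than counting noise, and so did samples 5 to 8. The index of dispersion (chi-square over its degrees of freedom, near 1 for counting noise alone) was 0.987 to 1.05 in such pairs, against 5.23 to 5.44 between the 2 sets. Each set was therefore averaged and counted as 1 library, A for samples 1 to 4 and B for samples 5 to 8, and every comparison rests on 2 libraries per group. Nothing in the labels says that these came from separate cultures, so p-values measure only the spread between these libraries, which may be technical. Wnt5a itself was at 144 and 99.8 in empty A and B and at 1049 and 1509 in Wnt5a A and B, a log2 difference of 3.38 (SE 0.22, limma adjusted p = 0.0010). Permuting the 4 libraries exactly gave a two-sided p of 0.333, and no smaller value is possible with 2 per group. Neuroendocrine markers were abundant in both groups: the summed value of 8 of them was 51992 to 53825 in the empty samples and 48488 to 52058 in the Wnt5a samples, and 0 of the 8 passed in limma or edgeR (1, Calca, had an unadjusted p under 0.05 in limma, and 1 passed in DESeq2).

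Imprinted genes are transcribed mainly from the copy inherited from 1 parent, because the parental copies carry different DNA methylation at a control region that a whole neighbourhood of genes shares. Several genes expressed from the paternal copy, such as Igf2, promote growth of the embryo, and several expressed from the maternal copy, such as H19, Cdkn1c and Grb10, restrain it. Many are shut down in most tissues after birth and can be expressed again in tumours.

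MicroRNA genes lie in introns of 2 members. Mir483 lies within Igf2 and Mir335 within Mest, on the strand of the host and outside every exon of the host in the GENCODE annotation. Their mature sequences from RefSeq are shown because a change in a host would concern the transcripts that carry them. Of the 2 hosts, Igf2 passed the limma test described below and Mest did not. Neither microRNA had a value, and a host's read count does not measure one. Capitals mark the seed, bases 2 to 8, and the 4 seeds differ from one another. The Igf2 microRNAs lie at chr7:142654968-142654989 and chr7:142654932-142654952 on the minus strand, and the Mest microRNAs at chr6:30741314-30741336 and chr6:30741354-30741375 on the plus strand of GRCm38.p6.
mmu-miR-483-5p: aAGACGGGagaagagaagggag
mmu-miR-483-3p: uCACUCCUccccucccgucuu
mmu-miR-335-5p: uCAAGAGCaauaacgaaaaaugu
mmu-miR-335-3p: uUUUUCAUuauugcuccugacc

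In the comparison of Wnt5a with empty cells, 2 of the 6 tested members changed, in opposite directions. Igf2, the most abundant member, fell to 66.8% of its empty level, and Grb10, an adaptor that restrains insulin and IGF receptor signalling, rose to 312% of it. Peg10 was at 104 ± 33.8 in the empty and 215 ± 7.55 in the Wnt5a libraries (SD, n = 2) but did not pass the test, and Peg3, Mest and Cdkn1c did not pass it either. Over all 12357 genes tested, 2.06% passed, 1.38% as higher and 0.672% as lower in Wnt5a. The median log2 difference of the 6 members was -0.13, against 0.0026 for all genes tested. The median of the members turned to 0.02 with Wnt5a library B left out and was -0.066 without empty library B. Among the same 6 members, 3 had no overlap between the 8 empty and the 8 Wnt5a samples, Peg10 and Grb10 above and Igf2 below. Over all genes tested this held for 12.4%, with 6.45% above and 5.95% below.

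**Figure D1:**
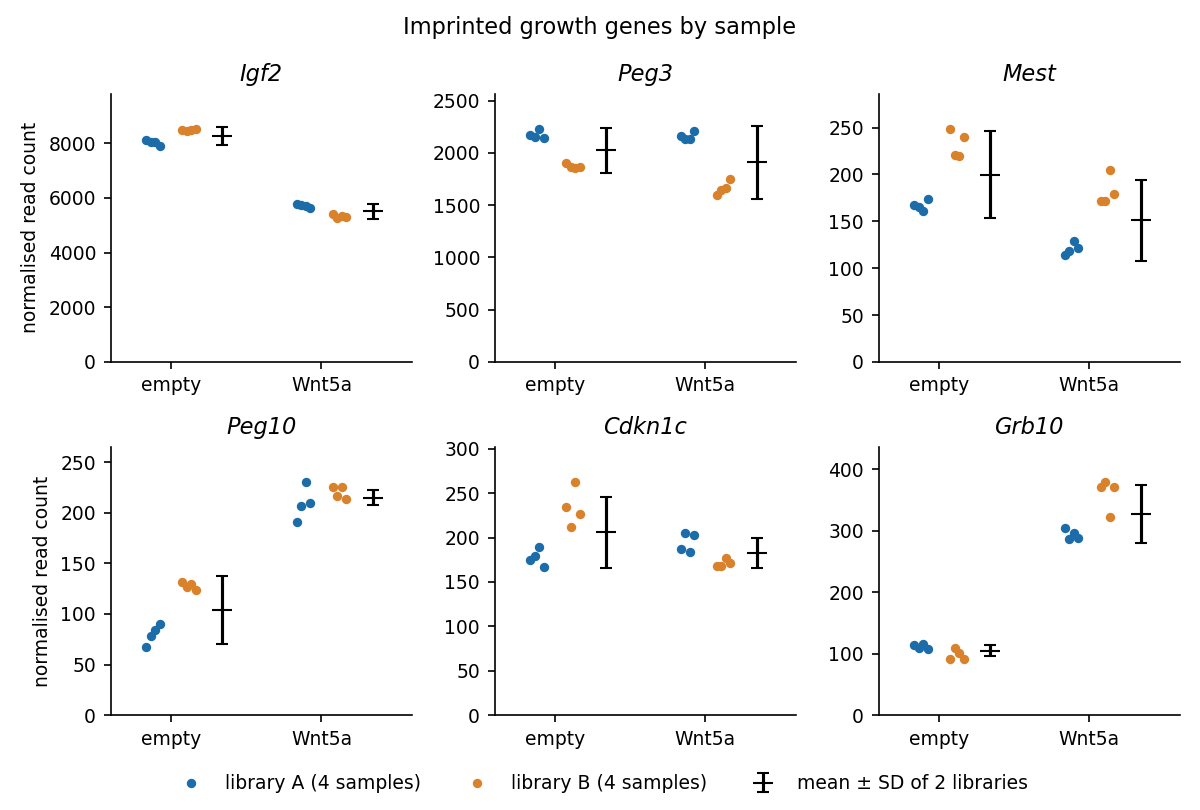
Normalised read count (vertical axis, from 0) of the 6 tested members in every sample, grouped as empty and Wnt5a (horizontal axis). Blue points are the samples of library A and orange points those of library B, and the black bar is the mean ± SD of the 2 libraries; the groups lie apart for Igf2, Peg10 and Grb10 and overlap for Peg3, Mest and Cdkn1c.

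Of the members known as paternally expressed, Igf2 (chromosome 7) encodes insulin-like growth factor 2, a secreted ligand of the IGF1 receptor and of the insulin receptor. In the empty samples its normalised read count was 7911 to 8541, with a median of 8292. In the Wnt5a samples it was 5252 to 5769, with a median of 5518. All 8 Wnt5a samples lay below all 8 empty samples. The library values were 8031 and 8489 in empty A and B and 5714 and 5322 in Wnt5a A and B, a log2 difference of -0.58 (SE 0.08, limma adjusted p = 0.024). The difference was -0.49 for the A pair and -0.67 for the B pair, so both pairs moved the same way. The limma adjusted p was 0.0855 without the filter on low values and 0.0672 without the variance trend. Igf2 was also not past the threshold with Wnt5a library B left out (log2 difference -0.53). The log2 difference stayed between -0.63 and -0.53 over all alternatives. Over the 13 alternatives with all libraries kept, adjusted p ranged from 6.29e-13 to 0.0855. The lowest came from limma with the 16 samples counted separately, which treats near-identical samples as replicates.

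Igf2 was far above the other members also per length of transcript. Divided by the longest GENCODE transcript, its level was 1749 ± 68.6 per kilobase in the empty libraries (SD, n = 2), rank 151 of 12295 genes, and 1169 ± 58.8 in the Wnt5a libraries, rank 301. The median gene was at 95.3 and 96.0 per kilobase. Igf2 made up 74.8% and 76.8% of the summed values of the members in empty A and B, and 65.7% and 67.2% in Wnt5a A and B. Igf2os, a transcript annotated at the Igf2 locus on the opposite strand, was at 635 and 742 in the empty libraries against 509 and 509 with Wnt5a, a log2 difference of -0.43 (limma adjusted p = 0.086). Strand use in the counting is not given in the sources used here, so reads of the 2 transcripts cannot be told apart with certainty; the ratio of Igf2 to Igf2os lay between 10.4 and 12.6 in the 4 libraries.

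The level of a marker of another cell type also moved in the direction of Igf2. Of 8 fibroblast markers 7 had a value, and their sum was 332 to 636 in the empty samples and 237 to 265 in the Wnt5a samples. Nearly all of it was Dcn, at 597 and 340 in the empty libraries against 241 and 246 with Wnt5a (log2 difference -0.89, limma adjusted p = 0.131). Dcn had an unadjusted p under 0.05 in limma and passed in DESeq2 (adjusted p = 0.00014) but not in edgeR (adjusted p = 0.118). Collagens that define fibroblasts, Col1a1, Col1a2 and Col3a1, had at most 5, 1 and 1 reads in any sample. Dcn was lower in empty B than in empty A, whereas Igf2 was higher there. The other fibroblast markers had few reads and did not move as 1. Pdgfra had 17 and 37 reads in empty A and B against 12 and 5 with Wnt5a. Col1a1 had 8 and 14 against 1 and 3, so both were higher in empty B, like Igf2. Pdgfrb and Thy1 were higher in empty B too. Pdgfrb had 3 and 8 reads against 7 and 7 with Wnt5a, and Thy1 had 0 and 5 against 1 and 2. Col1a2 had 0 and 0 against 1 and 1. Pdgfrb and Col1a2 were thus not lower with Wnt5a. The part of such cells in the Igf2 difference was not tested. In bulk RNA, fewer cells of a type and less RNA per cell cannot be told apart.

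Peg3 (chromosome 7), which encodes a large zinc finger protein, was the second most abundant member. Its normalised read count was 1859 to 2234 in the empty samples, with a median of 2026. In the Wnt5a samples it was 1595 to 2209, with a median of 1941. The groups overlapped, and the samples split by library instead: library A was at 2175 in empty and 2159 in Wnt5a, and library B at 1874 and 1663. The log2 difference between groups was -0.09 (SE 0.14, limma adjusted p = 0.832), while B lay below A by 0.22 in empty and by 0.38 in Wnt5a cells on the log2 scale.

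Mest (chromosome 6), which encodes a membrane protein of the hydrolase fold family, was at 161 to 249 in the empty samples, with a median of 197. In the Wnt5a samples it was at 114 to 205, with a median of 150.5. The ranges overlapped because library B was higher than library A in both groups, by 0.47 in empty and 0.59 in Wnt5a cells on the log2 scale. Within each pair of libraries the Wnt5a value was lower, 120 against 167 for A and 182 against 232 for B. Mest did not pass, with a log2 difference of -0.41 (SE 0.23, limma adjusted p = 0.461). It was -0.65 without empty A, where it passed (adjusted p = 0.039), -0.70 without Wnt5a B, -0.17 without empty B and -0.11 without Wnt5a A.

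Peg10 (chromosome 6), a gene derived from a retrotransposon and needed for formation of the placenta, had its lowest values in empty A. It was at 67.4, 78.6, 84.5 and 90.5 in the 4 samples of empty A and at 132, 127, 130 and 124 in those of empty B. In the Wnt5a samples it was at 191 to 231, with a median of 215. All Wnt5a samples therefore lay above all empty samples, but the empty libraries differed from each other by 0.67 on the log2 scale and the Wnt5a libraries by 0.07. The log2 difference between groups was 1.07 (SE 0.21, limma adjusted p = 0.061), with 1.37 for the A pair and 0.78 for the B pair. DESeq2 on the recovered reads placed it past the threshold (adjusted p = 2.71e-05) and edgeR's quasi-likelihood test did not. In limma it passed without empty A (log2 difference 0.74, adjusted p = 0.0016) and without empty B (log2 difference 1.41, adjusted p = 3.76e-07); over the alternatives its adjusted p ranged from 3.76e-07 to 0.168.

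Plagl1 (chromosome 10), a zinc finger transcription factor, had 1 read in all 16 samples together, in an empty sample. This is under the floor of 3 reads per library that a count of 0 allows, which equals a normalised value of 0.703 to 0.827 depending on the library and covers counting error only. Its paralogues were unequal: Plagl2 was at 568 and 552 in the empty libraries against 586 and 513 with Wnt5a, and Plag1 at 16.5 and 21.1 against 10.3 and 11.3 (log2 difference -0.74, limma adjusted p = 0.181).

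Of the members known as maternally expressed, H19 and Meg3 encode long non-coding RNAs, and neither was detectable beyond the floor. H19 (chromosome 7), the neighbour of Igf2 that shares its control region, had 2 reads in all 16 samples, both in empty library B, against 29123 and 33337 Igf2 reads in empty A and B. Reads of H19 thus came to 0.0060% of those of Igf2 in empty B, and 0 H19 reads were found in the 3 other libraries, which allows at most 3 reads in each. Meg3 (chromosome 12) had 3 reads, 1 each in empty B, Wnt5a A and Wnt5a B. The 2 other non-coding RNAs of its neighbourhood with values, Rian and Mirg, had 2 reads each in all samples. Selection by oligo-dT captures polyadenylated RNA, and what a poorly polyadenylated form contributes was not measured.

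Cdkn1c (chromosome 7) encodes p57, an inhibitor of cyclin-dependent kinases. It was at 167 to 263 in the empty samples, with a median of 201. In the Wnt5a samples it was at 167 to 206, with a median of 180. The groups overlapped, and the 2 pairs of libraries moved in opposite directions: 178 in empty A against 195 in Wnt5a A, a log2 difference of 0.13, and 234 in empty B against 171 in Wnt5a B, a log2 difference of -0.45. Cdkn1c had a log2 difference of -0.16 over both pairs (limma adjusted p = 0.705, with an SE of 0.15), which turned to 0.04 when empty library B was left out. The paralogues were more abundant: Cdkn1b (p27) was at 1884 and 1920 in the empty libraries against 1915 and 1840 with Wnt5a, and Cdkn1a (p21), a target of p53, at 1472 and 1440 against 1235 and 1279. The log2 difference of Cdkn1a was -0.21 (limma adjusted p = 0.201).

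Grb10 (chromosome 11) showed the largest difference of the members. It was at 114, 110, 115 and 107 in the samples of empty A and at 91.8, 109, 101 and 92.1 in those of empty B. In Wnt5a A it was at 305, 287, 297 and 288, and in Wnt5a B at 371, 380, 323 and 372. Every Wnt5a sample thus lay above every empty sample, and the highest empty sample, at 115, was below the lowest Wnt5a sample, at 287. The library means were 105 ± 9.10 and 328 ± 47.4 (SD, n = 2), a log2 difference of 1.63 (SE 0.13, limma adjusted p = 0.0022). The difference was 1.39 for the A pair and 1.86 for the B pair. Grb10 stayed past the threshold in all 17 alternatives, with log2 differences of 1.46 to 1.78 and adjusted p-values of 7.63e-21 to 0.0255. Of the other members of its family of adaptor proteins, Grb7 was at 696 and 668 in the empty libraries against 662 and 659 with Wnt5a (log2 difference -0.05, limma adjusted p = 0.845), and Grb14 at 416 and 327 against 306 and 319 (log2 difference -0.24, limma adjusted p = 0.427).

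**Figure D2:**
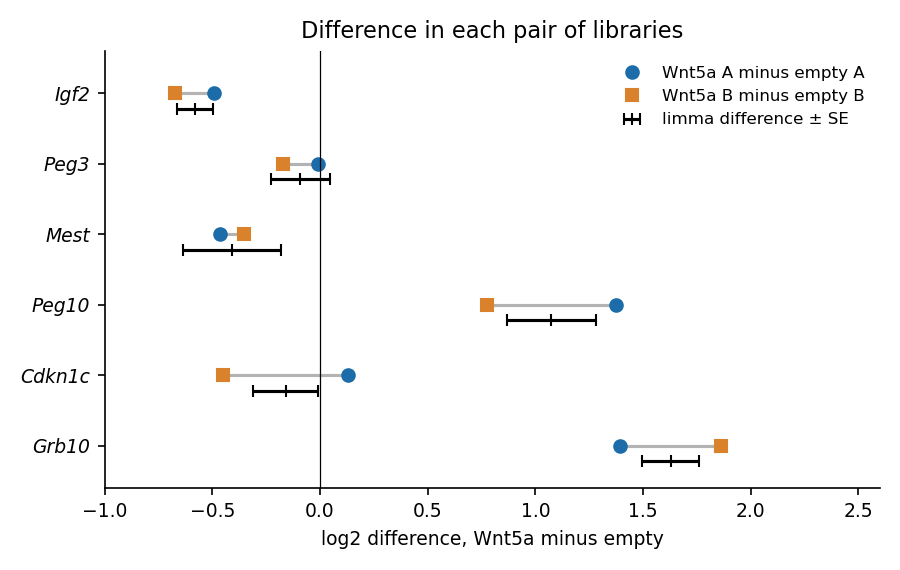
Log2 difference, Wnt5a minus empty (horizontal axis), of each tested member between the A libraries (blue circles) and between the B libraries (orange squares), with the limma difference ± SE in black beneath. Both pairs lie on the same side of 0 for Igf2, Peg3, Mest, Peg10 and Grb10, and on opposite sides for Cdkn1c (0.13 and -0.45).

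RefSeq annotates 2 transcription starts for Grb10. Gene counts say neither which start was used nor which parental copy was transcribed. The window from 250 bases before to 50 after each start is shown because Grb10 is the member with the largest rise and because imprinting acts through methylation of CG dinucleotides, which the capitals mark. The first window, at chr11:12037371-12037670 on the minus strand of GRCm38.p6, holds 45 CG dinucleotides, a count reached by 1.93% of the 32851 windows in the table. The second, at chr11:12027922-12028221 on the same strand, holds 9, a count reached by 45.8% of windows. No methylation was measured, and whether either window overlaps a control region was not examined.
Grb10 start 1: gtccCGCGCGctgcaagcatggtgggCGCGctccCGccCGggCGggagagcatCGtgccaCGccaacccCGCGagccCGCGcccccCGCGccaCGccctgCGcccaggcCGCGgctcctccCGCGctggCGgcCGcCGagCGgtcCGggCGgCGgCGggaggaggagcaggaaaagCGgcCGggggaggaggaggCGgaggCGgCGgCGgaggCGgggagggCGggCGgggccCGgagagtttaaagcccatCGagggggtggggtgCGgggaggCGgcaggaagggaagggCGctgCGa
Grb10 start 2: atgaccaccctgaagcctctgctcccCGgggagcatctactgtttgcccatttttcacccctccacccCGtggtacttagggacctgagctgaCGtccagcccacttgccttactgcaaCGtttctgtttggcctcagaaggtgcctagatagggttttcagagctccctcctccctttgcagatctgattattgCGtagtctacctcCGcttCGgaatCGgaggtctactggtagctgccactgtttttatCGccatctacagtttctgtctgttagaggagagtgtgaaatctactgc

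The windows of the other members with an entry (7 of 10 members had one, Grb10 included) held 1 to 26 CG dinucleotides, against a median of 7 over all windows. Igf2, with 4 windows, ranged from 2 to 24 among its own starts.

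Compared per kilobase of the longest transcript, the members kept a similar order in both groups apart from Grb10. In the empty libraries Igf2 was followed by Peg3 at 233 ± 24.5, Cdkn1c at 108 ± 21.0, Mest at 74.9 ± 17.4, Grb10 at 20.7 ± 1.80 and Peg10 at 15.6 ± 5.07 (SD, n = 2). Cdkn1c and Mest, and Grb10 and Peg10, were closer than the sum of their SDs. In the Wnt5a libraries Peg3 was at 220 ± 40.3, Cdkn1c at 96.2 ± 8.86, Grb10 at 64.8 ± 9.37, Mest at 56.7 ± 16.3 and Peg10 at 32.2 ± 1.13, and Grb10 and Mest were closer than the sum of their SDs. The level of Grb10 thus moved from rank 10434 to rank 7704 of 12295 genes, and that of Peg10 from rank 10810 to 9657.

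Neighbouring genes were compared because imprinted genes share control regions. For Grb10 the 3 nearest tested genes on either side in RefSeq order had log2 differences between -0.19 and 0.22, and 0 of 6 passed in limma, edgeR or DESeq2 (1, Cobl, had an unadjusted p under 0.05 in limma). Ddc, the enzyme that makes dopamine and serotonin and the immediate neighbour, was at 9763 and 10401 in the empty libraries against 9436 and 10013 with Wnt5a (log2 difference -0.05, limma adjusted p = 0.854). Cobl, on the other side, was at 1428 and 1295 against 1211 and 1168 (log2 difference -0.19, limma adjusted p = 0.302). Chromosome 11 as a whole was higher with Wnt5a, at a median log2 difference of 0.17 over 1020 tested genes. With the chromosome medians removed the Grb10 difference was 1.46 and still past the threshold.

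Peg10 stood beside Sgce, which encodes epsilon-sarcoglycan and is expressed from the same parental copy. Sgce was at 188 and 209 in the empty libraries against 254 and 243 with Wnt5a, a log2 difference of 0.32 (limma adjusted p = 0.176). The 6 neighbours of Peg10 ranged from -0.35 to 0.32, with 0 past the threshold in limma, edgeR or DESeq2 (2 at an unadjusted p under 0.05 in limma). The ratio of Peg10 to Sgce was 0.427 and 0.613 in the empty libraries against 0.824 and 0.907 with Wnt5a, higher in both Wnt5a libraries than in either empty library.

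Around the 4 remaining tested members, 0 of the 6 neighbours of each passed in limma or edgeR. In limma 1 neighbour each of Igf2 and Mest had an unadjusted p under 0.05, and DESeq2 called 1, Igf2os (adjusted p = 0.012). Copg2, next to Mest, differed by -0.06 on the log2 scale, Usp29, next to Peg3, by -0.11, and Kcnq1ot1, the non-coding RNA in the domain of Cdkn1c, by -0.34 (limma adjusted p = 0.807, 0.835 and 0.467). Of the 6 neighbours of Igf2, 5 had negative differences, the lowest being -0.54 for Th, and Mrpl23 had 0.21. Th was near the minimum for testing, with means of 13.2 in empty and 8.92 in Wnt5a (limma adjusted p = 0.449). Dusp8 and R74862 differed by only -0.07 and -0.08.

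**Figure D3:**
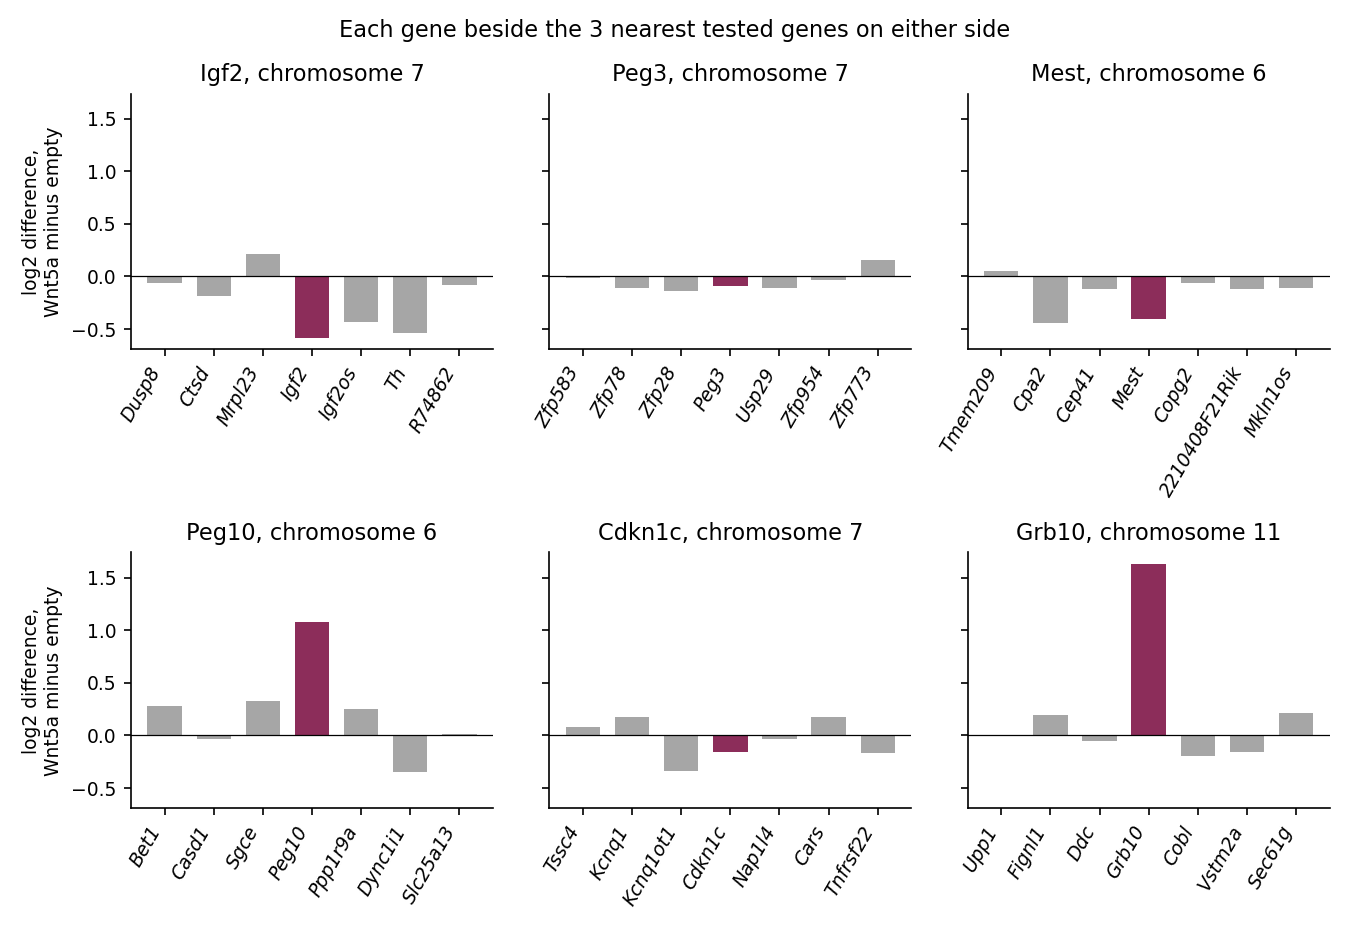
Log2 difference, Wnt5a minus empty (vertical axis), of each tested member (purple) and of the 3 nearest tested genes on either side in RefSeq order (grey, horizontal axis, not to genomic scale). Grb10 at 1.63 and Peg10 at 1.07 stand above neighbours that lie between -0.35 and 0.32.

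Other imprinted genes were described from a list of 59, drawn up from general knowledge. The list also held neighbours of the members, such as Mrpl23 and Th, and whether each listed gene is imprinted was not checked. Of the 59, 48 had a value and 31 were expressed enough to be tested. Of these 1 was higher and 0 lower in Wnt5a, with 5 at an unadjusted p under 0.05 (16.1%, the same share as the 1988 of 12357 genes tested). The median log2 difference was -0.05, against 0.0026 for all genes tested, and lay between -0.12 (without empty B) and -0.016 (without empty A) with 1 library left out. The gene that rose was Ndn (chromosome 7), which encodes necdin, a growth suppressor of neurons expressed from the paternal copy. It was at 8.01 and 6.63 in the empty libraries against 48.1 and 39.4 with Wnt5a, a log2 difference of 2.43 (SE 0.22, limma adjusted p = 0.0033). The 8 empty samples were at 1.10 to 16.3 and the 8 Wnt5a samples at 34.6 to 50.9, so the groups did not overlap, but the empty values rest on 29 and 26 reads per library. Magel2 and Mkrn3, imprinted genes that lie close to Ndn, had at most 1 and 2 reads in any sample. Snrpn, also listed and on chromosome 7, was too low to test, with 20 and 38 reads in empty against 20 and 17 in Wnt5a. Ube3a, on the same chromosome, was at 963 and 849 in empty against 976 and 783 in Wnt5a (log2 difference -0.05, limma adjusted p = 0.908).

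The most abundant genes of that list, chosen after their values were seen, were Nnat and Gnas. Nnat, which encodes the membrane proteolipid neuronatin, was at 20501 and 24013 in the empty libraries against 16924 and 20158 with Wnt5a (log2 difference -0.26, limma adjusted p = 0.397). Gnas, which encodes a G protein subunit, was at 22463 and 22716 against 21702 and 20651 (log2 difference -0.09, limma adjusted p = 0.733). Placental genes of imprinted domains, Phlda2 and Ascl2, had at most 1 read in any sample.

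Igf2 acts through receptors, and binding proteins hold it outside the cell, so the genes of IGF and insulin signalling were described from a list of 31. Values were found for 30 and 22 were tested: 1 was higher and 0 lower in Wnt5a, 5 had an unadjusted p under 0.05 (22.7%, against 16.1% of all genes tested), and the median log2 difference was -0.15. That median was -0.046 without empty A, -0.037 without Wnt5a B and -0.24 without Wnt5a A, and without empty B the calls became 1 higher and 4 lower, Igf1r, Irs1 and Irs2 among them. The 3 receptors were present. Igf1r, the receptor that signals growth, was at 1083 and 815 in the empty libraries against 728 and 568 with Wnt5a, a log2 difference of -0.55 (SE 0.16, limma adjusted p = 0.169), and its samples did not overlap between groups; DESeq2 alone of the count tests placed it past the threshold (adjusted p = 0.011). With 1 library left out, the log2 difference of Igf1r lay between -0.75 (without empty B) and -0.34 (without empty A). The limma adjusted p was 6.49e-05 with the 16 samples counted separately. That fit treats samples that differ by little more than counting noise as replicates, so its p-value is too small. Igf2r, which takes up IGF2 for degradation, was at 1214 and 1069 against 1191 and 936 (log2 difference -0.11, limma adjusted p = 0.771). Insr was at 630 and 472 against 529 and 452 (log2 difference -0.16, limma adjusted p = 0.705).

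The gene that rose was Igfbp2 (chromosome 1), a secreted IGF binding protein, at 1.10 and 1.53 in the empty libraries against 20.4 and 22.3 with Wnt5a. Its log2 difference on the log2(value + 1) scale was 3.27 (SE 0.29, limma adjusted p = 0.0032), and the empty values rest on 4 and 6 reads. With group means of 1.32 in empty and 21.3 in Wnt5a, Igfbp2 reached the minimum mean of 10 for testing only through the Wnt5a samples. Igfbp5, the most abundant binding protein of the list and chosen for that reason after its values were seen, was at 43070 and 38071 against 35988 and 36940 (log2 difference -0.15, limma adjusted p = 0.619). Of the proteins that bind Igf2 mRNA, Igf2bp2 was at 167 and 168 against 147 and 120 (log2 difference -0.33, limma adjusted p = 0.258), and Igf2bp1 and Igf2bp3 had at most 1 and 2 reads in any sample.

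**Figure D4:**
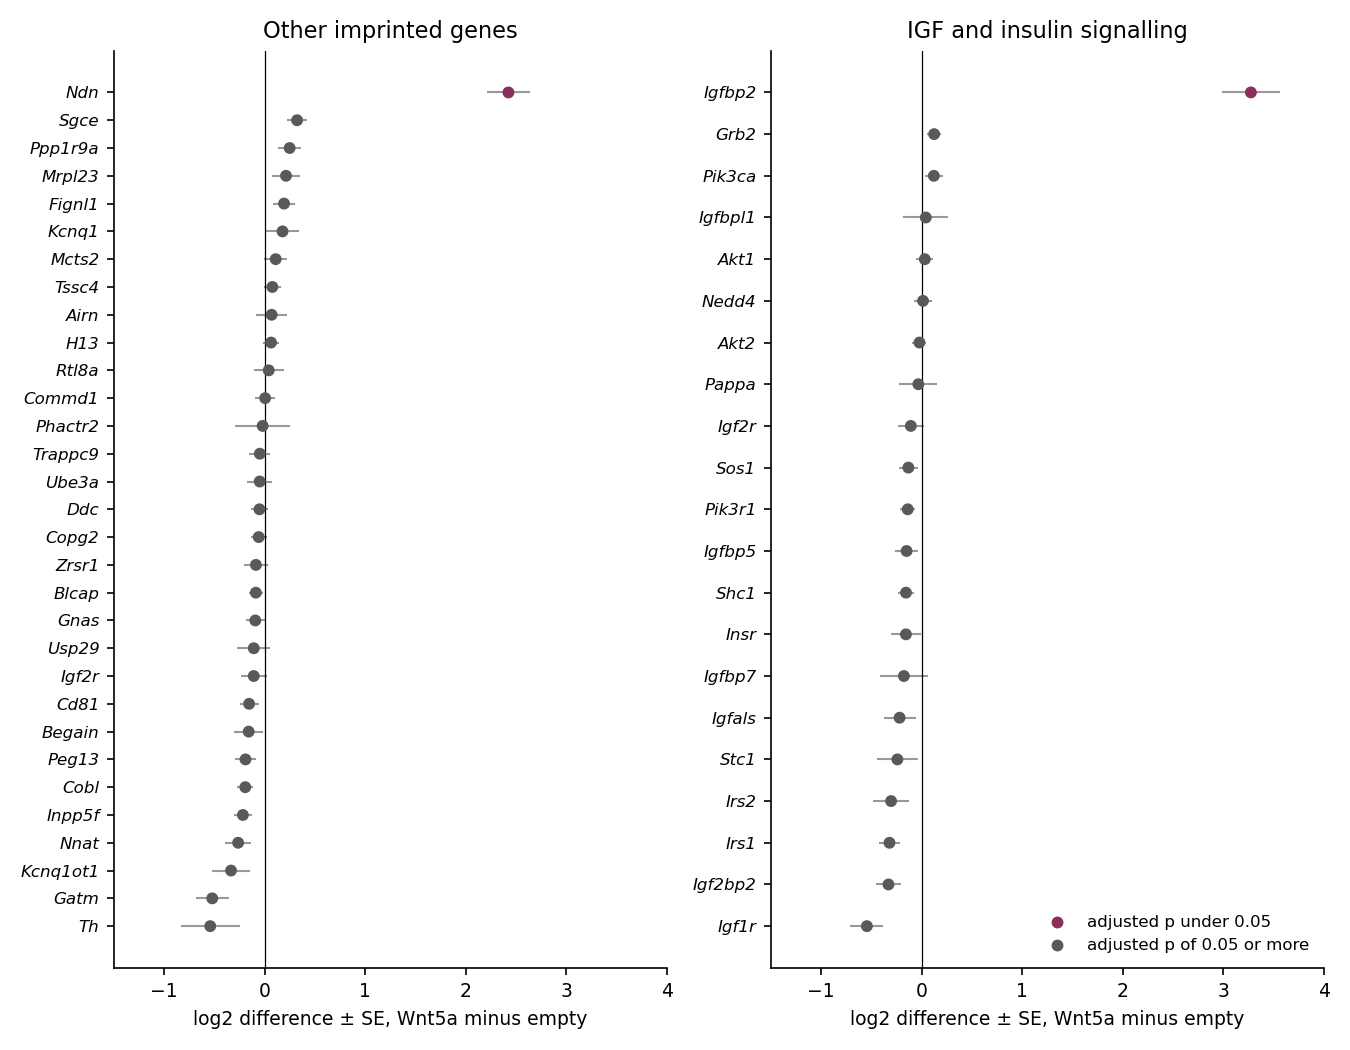
Log2 difference ± SE, Wnt5a minus empty (horizontal axis), of the 31 tested genes of the list of other imprinted genes (left) and 21 of the 22 of IGF and insulin signalling (right), in order of size. Purple points passed the limma threshold (Ndn at 2.43 and Igfbp2 at 3.27) and grey points did not. Ndn and Igfbp2 reached the minimum for testing only through the Wnt5a samples.

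Most genes of a list drawn up for the maintenance of imprints were expressed and showed small differences. Besides factors that keep imprints through cell division, the list held de novo DNA methyltransferases and Tet enzymes. Of 21 listed, 20 had a value and 17 were tested, and 0 passed in limma, edgeR or DESeq2. The median log2 difference was 0.01 and turned to -0.0076 on median centring. In limma 1 gene, Dnmt3a, had an unadjusted p under 0.05. Dnmt3a was at 2069 and 1908 in the empty libraries against 2452 and 2443 with Wnt5a. Its log2 difference was 0.30 (limma adjusted p = 0.118), and its samples did not overlap between groups. Dnmt1, the maintenance DNA methyltransferase, was at 4269 and 4268 in the empty libraries against 4515 and 3963 with Wnt5a. Its cofactor Uhrf1 was at 1542 and 1847 against 1575 and 1644, Trim28 at 3452 and 3644 against 3584 and 3620, and Ctcf, the insulator protein that binds the control region between H19 and Igf2, at 1223 and 1244 against 1309 and 1274. Zfp57, a zinc finger protein that guides Trim28 to imprints, was too low to test, with 0 and 4 reads in the empty and 11 and 8 reads in the Wnt5a libraries.

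A further 3 lists gave the context of single members. Over all 12357 genes tested, 16.1% had an unadjusted p under 0.05 in limma and 6095 had a negative difference. DESeq2 called 538 of all genes, 225 of them lower. Of 9 paralogues, 7 were tested and 0 passed in limma, edgeR or DESeq2 (2 at an unadjusted p under 0.05 in limma); all 7 had negative differences, with a median of -0.21, but 5 of 7 with Wnt5a library B left out. That median was -0.066 without empty A, -0.075 without empty B, -0.13 without Wnt5a A and -0.24 without Wnt5a B. Of 12 partners of p57 at the step from G1 to S phase, 9 were tested and 0 passed in the 3 tools (1 at an unadjusted p under 0.05 in limma), with a median of -0.03, which turned to 0.07 with empty library B left out and to 0.04 with Wnt5a library A left out. Of 12 genes of the Notch pathway, in which the protein of Dlk1 is a non-canonical ligand, 9 were tested, 1 was lower, and the median was -0.37. It was -0.18 without empty A and -0.20 without Wnt5a A. An unadjusted p under 0.05 was found for 5 of the 9, and DESeq2 called 3 as lower (Dll3, Dll4 and Notch2); without empty B limma called 4 as lower and 1, Hes1, as higher. The gene past the limma threshold was Notch2 (chromosome 3), at 429 and 383 in the empty libraries against 218 and 156 with Wnt5a, a log2 difference of -1.13 (SE 0.16, limma adjusted p = 0.024). The Notch2 call was lost without the filter on low values (adjusted p = 0.102) and without the variance trend (adjusted p = 0.0724). Dlk2, the paralogue of Dlk1, was at 94.0 and 121 against 79.3 and 101 (log2 difference -0.26, limma adjusted p = 0.570).

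The tested genes whose pattern over the 4 libraries was nearest to each changed member were chosen by a fixed rule, the Euclidean distance of centred log2 values. For Igf2 they were Ccdc172, at a distance of 0.06, and Pam, which encodes an enzyme that amidates peptide hormones, at 0.07. Ccdc172 was low, at 12.7 and 12.7 in the empty libraries against 8.68 and 7.97 with Wnt5a. It did not pass (limma adjusted p = 0.319), and its samples overlapped between groups. It lies on chromosome 19, where the median log2 difference was 0.36. Pam was at 12858 and 13332 in the empty libraries against 9153 and 8897 with Wnt5a (log2 difference -0.54, limma adjusted p = 0.031); it lies on chromosome 1, where the median gene was also lower (-0.17), and with the chromosome medians removed its difference was -0.36 and its adjusted p 0.135. Of those for Grb10, Adgrg2, which encodes an adhesion G protein-coupled receptor, lay at a distance of 0.16. Adgrg2 was at 6.90 and 5.86 in the empty libraries against 22.5 and 26.0 with Wnt5a, so it too reached the minimum for testing only through the Wnt5a samples. With 4 libraries in 2 groups, any gene with a like group difference and a like spread comes near, and the distances are a description.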

How the data were processed

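RNA-seq values of 16 samples (8 empty, 8 Wnt5a) were used as deposited. Each file holds 1 signal value per gene symbol, normalised by the authors. TopHat, Bowtie, HTSeq and DESeq2 are named in the submitters' processing notes, with no version or role; genome build, annotation and strand are not given in the sources used here. In each file 100% of values were whole multiples (tolerance 0.001) of the lowest value above 0, so reads were recovered from the deposited signal by dividing by it.

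Sets of samples with an index of dispersion under 1.5 over genes with at least 10 reads were averaged as 1 library. Genes with a mean of at least 10 (12357) were compared with limma 3.58.1 (R 4.3.3, eBayes with trend) on log2(value + 1). The p-values were adjusted by Benjamini-Hochberg over those genes, with 0.05 as the threshold; this scale understates the change of low genes. The test was checked on simulated data. Recovered reads summed per library were tested with edgeR 4.0.16 and DESeq2 1.42.0. Lengths came from GENCODE M21, chromosomes and gene order from RefSeq GRCm38.p6, in which 17620 of 17655 symbols matched. With the build of the files unknown, coordinates are given for the printed sequences only.

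The members and lists were chosen with earlier results of these data known. Genes were named by rule: the members, fixed partners and neighbours, up to 4 called genes per list, and the 2 nearest patterns per changed member, of which 1 is not reported here. Igf2os, Nnat, Gnas, Igfbp5, Dcn, Phlda2 with Ascl2, Magel2 with Mkrn3, Snrpn, Ube3a, Th, Dnmt3a, Irs1, Irs2, Dll3, Dll4, Hes1, and the marker genes were named after their values were seen.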

Additional observations from a re-analysis of the deposited data

How the results depend on the processing

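Against 2 members called (1 higher, 1 lower), the replicate block and counting all 16 samples separately each gave 4 (2 higher, 2 lower, adding Peg10 and Mest), and no filter or no variance trend each gave 1 (Grb10, higher). Leaving out 1 library gave 1 to 4; the lone library of a group is then assumed to vary like those of the other group. Both edgeR fits and the other alternatives with all libraries gave 2, apart from DESeq2, which gave 3. For the other lists, 3 genes called became 1 with a minimum value of 50, 41 with all 16 samples, 20 with the replicate block, 6 with DESeq2, and 3 to 13 with 1 library left out. Over all genes, 254 calls (171 higher, 83 lower) became 246 with edgeR and TMM, 538 with DESeq2, 2095 with the replicate block and 4377 with 16 samples, but 102 with a minimum value of 50, 146 with no filter and 158 with no variance trend. With 1 library left out they were 493 (without empty A), 1098 (without empty B), 166 (without Wnt5a A) and 138 (without Wnt5a B). With a minimum value of 50, Ndn and Igfbp2 were no longer tested. Counting the 16 samples separately treats samples that differ by little more than counting noise as replicates. The causes of the other shifts were not tested.

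Same-numbered libraries deviated together across genes (Pearson r = 0.44; genes are not independent replicates), but 2 pairs are too few to show that the numbers pair the samples. With the replicate block, limma adjusted p was 0.0042 for Peg10, 0.014 for Mest, 0.0011 for Igf1r and 0.0080 for Dnmt3a.

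The Wnt5a difference stayed past the threshold, at 3.12 to 3.64 with 1 library left out. Differences that changed sign when 1 library was left out were small: Peg3 lay between -0.28 and 0.10, Cdkn1c between -0.36 and 0.039, Igf2r between -0.28 and 0.064, Insr between -0.37 and 0.050, Cdkn1b between -0.048 and 0.0099, Plagl2 between -0.13 and 0.066, Copg2 between -0.13 and 0.0086, Usp29 between -0.35 and 0.14, Phactr2 between -0.29 and 0.25, Dnmt1 between -0.11 and 0.081, Uhrf1 between -0.20 and 0.061, and Trim28 between -0.017 and 0.061. With all libraries kept, Phactr2 turned to 0.033 when the 16 samples were counted separately, and Dnmt1 to 0.018 after quantile normalization and to 0.0036 with chromosome medians removed; the cause was not tested.

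Divided by the shortest instead of the longest GENCODE transcript, empty levels per kilobase were 21968 for Igf2, 2762 for Peg3, 585 for Mest, 412 for Cdkn1c and 299 for Grb10, since the shortest transcripts are fragments of at most 733 bases, and 15.9 for Peg10; Mest then ranked above Cdkn1c. Depth limits H19, Meg3 and Plagl1, which rest on at most 2 reads per library, and Igfbp2, with 4 and 6 reads in the empty libraries.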
